A study of Mus musculus with 16 samples.

Results

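The transcription factors Snai1, Snai2, Twist1, Twist2, Msx1, Msx2, Nfatc1, Zeb1 and Zeb2 were followed in the aortic valve and ascending aorta of Eln+/- mice, heterozygous at the elastin gene, and of Eln+/+ mice. A probe set was taken where the platform annotation gave it 1 gene symbol and that symbol was one of the 9. This gave 23 of the 45037 non-control probe sets on the array: 1 each for Snai1, Twist1 and Twist2, 2 each for Snai2, Msx1 and Msx2, 4 for Zeb1 and 5 each for Nfatc1 and Zeb2. The groups were valve Eln+/-, valve Eln+/+, aorta Eln+/- and aorta Eln+/+, with 4 arrays each and all mice aged 30 days. Elastin is the rubber-like matrix protein of artery walls. Valve specimens contained cusp, annulus and root together, and per the labels each array held the RNA of 1 unpooled specimen. No treatment was given, and the labels give neither the strain nor the sex of the mice. Every value below is on the log2 scale and is relative to the median that the probe set has over all 16 arrays, so values can be set against each other across arrays but not across genes.

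In the embryonic heart, endocardial cells that line the outflow tract and the atrioventricular canal leave their sheet and invade the cushion matrix, an endothelial form of epithelial to mesenchymal transition (EMT) from which valve leaflets grow. TGF-beta, BMP and Notch signals from myocardium and endocardium start it. The zinc finger proteins Snai1 and Snai2 (Slug) and the zinc finger and homeodomain proteins Zeb1 and Zeb2 repress junction genes such as the cadherins through E-box sites. Twist1 and Twist2 are basic helix-loop-helix factors of mesenchymal cells, Msx1 and Msx2 are homeodomain factors downstream of BMP, and Nfatc1 is a calcineurin-dependent factor of the endocardium that is needed for valve elongation. At 30 days of age this transition is over, and the same factors are read out in resident valve and vessel cells.

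Promoter sequence was available for 6 of the 9 genes (RefSeq, build GRCm38.p6); Snai2, Zeb1 and Nfatc1 are not shown. The 250 bases before the start site are shown for Msx1, Zeb2, Msx2 and Snai1. Over both genotypes, Msx1 and Zeb2 passed as higher in the valve on part of their probe sets only. Msx2 and Snai1 did not pass. Capitals mark CACCTG, the E-box form bound by Snail and Zeb proteins, and TAATTG, a core bound by Msx proteins, each searched on both strands (CAGGTG on the opposite strand for the first motif and CAATTA for the second); the motifs do not overlap in these windows.
Msx1, chr5:37824586-37824835, minus strand: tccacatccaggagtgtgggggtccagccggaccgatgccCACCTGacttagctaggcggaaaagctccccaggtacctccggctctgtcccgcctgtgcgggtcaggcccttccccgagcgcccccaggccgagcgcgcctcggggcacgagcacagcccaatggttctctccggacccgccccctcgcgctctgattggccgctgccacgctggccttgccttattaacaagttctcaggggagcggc
Msx2, chr13:53472781-53473030, minus strand: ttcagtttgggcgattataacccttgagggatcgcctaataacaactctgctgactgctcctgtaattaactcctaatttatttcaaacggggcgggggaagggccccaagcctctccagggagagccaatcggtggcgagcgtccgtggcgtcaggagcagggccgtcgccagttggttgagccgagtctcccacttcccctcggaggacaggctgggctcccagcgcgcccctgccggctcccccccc
Zeb2, chr2:45117443-45117692, minus strand: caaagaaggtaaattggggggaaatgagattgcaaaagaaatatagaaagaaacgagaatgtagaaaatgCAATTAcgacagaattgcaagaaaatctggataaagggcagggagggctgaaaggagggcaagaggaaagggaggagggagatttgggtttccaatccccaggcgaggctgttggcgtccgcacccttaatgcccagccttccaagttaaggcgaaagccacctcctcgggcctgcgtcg
Snai1, chr2:167537945-167538194, plus strand: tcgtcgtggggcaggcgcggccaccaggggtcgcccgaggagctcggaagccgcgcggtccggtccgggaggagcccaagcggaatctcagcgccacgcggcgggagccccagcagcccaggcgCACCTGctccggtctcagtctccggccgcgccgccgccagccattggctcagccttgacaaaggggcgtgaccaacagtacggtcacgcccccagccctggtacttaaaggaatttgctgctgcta
CACCTG was present in the Msx1 window, starting 210 bases before the start site, and in the Snai1 window, starting 126 bases before it. Over all genes with a promoter entry, 19.4% held it in the same window, while 8.3% held the Msx motif. That motif was present in 1 of the 4 Zeb2 windows, the one shown, starting 180 bases before the start site. The windows of Twist1, Twist2 and Msx2 held neither motif. A match describes the letters only.

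Array medians of the deposited ratios spanned 0.957 to 1.01. Heart muscle markers separated the tissues: the mean over the 22 genes ran from 1.53 to 2.31 in valve Eln+/- and 0.52 to 1.49 in valve Eln+/+, against -3.58 to -0.87 in aorta Eln+/- and -3.12 to -1.07 in aorta Eln+/+. The 2 tissues did not overlap there, so heart muscle content and tissue cannot be told apart. Smooth muscle markers ran the other way, with 2 of 13 higher and 8 lower in the valve, beside 5.83% and 3.8% of all genes. The 2 higher ones, Des and Pln, are also among the 22 heart muscle genes. Of the aorta arrays, Eln+/- replicate 3 and Eln+/+ replicate 2 stood apart, with heart muscle means of -0.87 and -1.07. Aorta Eln+/- replicates 2 and 4 carried thymocyte signal, with Rag1 at 5.06 and 3.15. The targeted gene was lower on average in Eln+/- tissue without passing: the Eln difference was -1.27 ± 0.34 (SE) in the valve and -0.42 ± 0.34 (SE) in the aorta, with adjusted p of 0.395 and 0.900 in limma. Xist stood above the Y-linked genes on all 4 Eln+/- arrays of each tissue and on 1 of 4 Eln+/+ arrays of each tissue, so genotype and sex signal cannot be told apart on most arrays, and every genotype value below carries this limit. In whole tissue, more cells of a type and more RNA per cell cannot be told apart either.

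The tissue comparison asked whether these factors differ between valve and aorta. Over both genotypes, Snai2 rose in the valve on both of its probe sets, Zeb2 on 2 of 5 and Msx1 on 1 of 2, all by 1.6 to 1.8 times, while Zeb1 fell on 1 of 4. Snai1, Twist1, Twist2, Msx2 and Nfatc1 did not pass. In all, 5 of 23 probe sets were higher and 1 lower at an adjusted p under 0.05 (limma, Benjamini-Hochberg over all probe sets), against 4.4% of all probe sets higher and 3.64% lower. The median difference of the 23 was 0.18, beside -0.038 over all probe sets, and 17 of 23 were positive, beside 42.1% of all. In Eln+/- mice 1 was higher and 1 lower, where 3.27% and 2.54% of all probe sets were. In Eln+/+ mice 1 was higher and 0 lower, where 0.848% and 0.0977% of all were; at an unadjusted p under 0.05 there were 6 of the 23 in Eln+/- mice, beside 19% of all probe sets, and 6 in Eln+/+ mice, beside 11.8%. Without the 2 aorta arrays that carried thymocyte signal, 7 of 23 were called over both genotypes. That setting was chosen after the data were seen. With the replicate number as a block within genotype, 3 were called over both genotypes. In Eln+/+ mice that block joined valve and aorta arrays of opposite sex signal at replicates 2 and 4, so the number is not a mouse there.

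**Figure D1:**
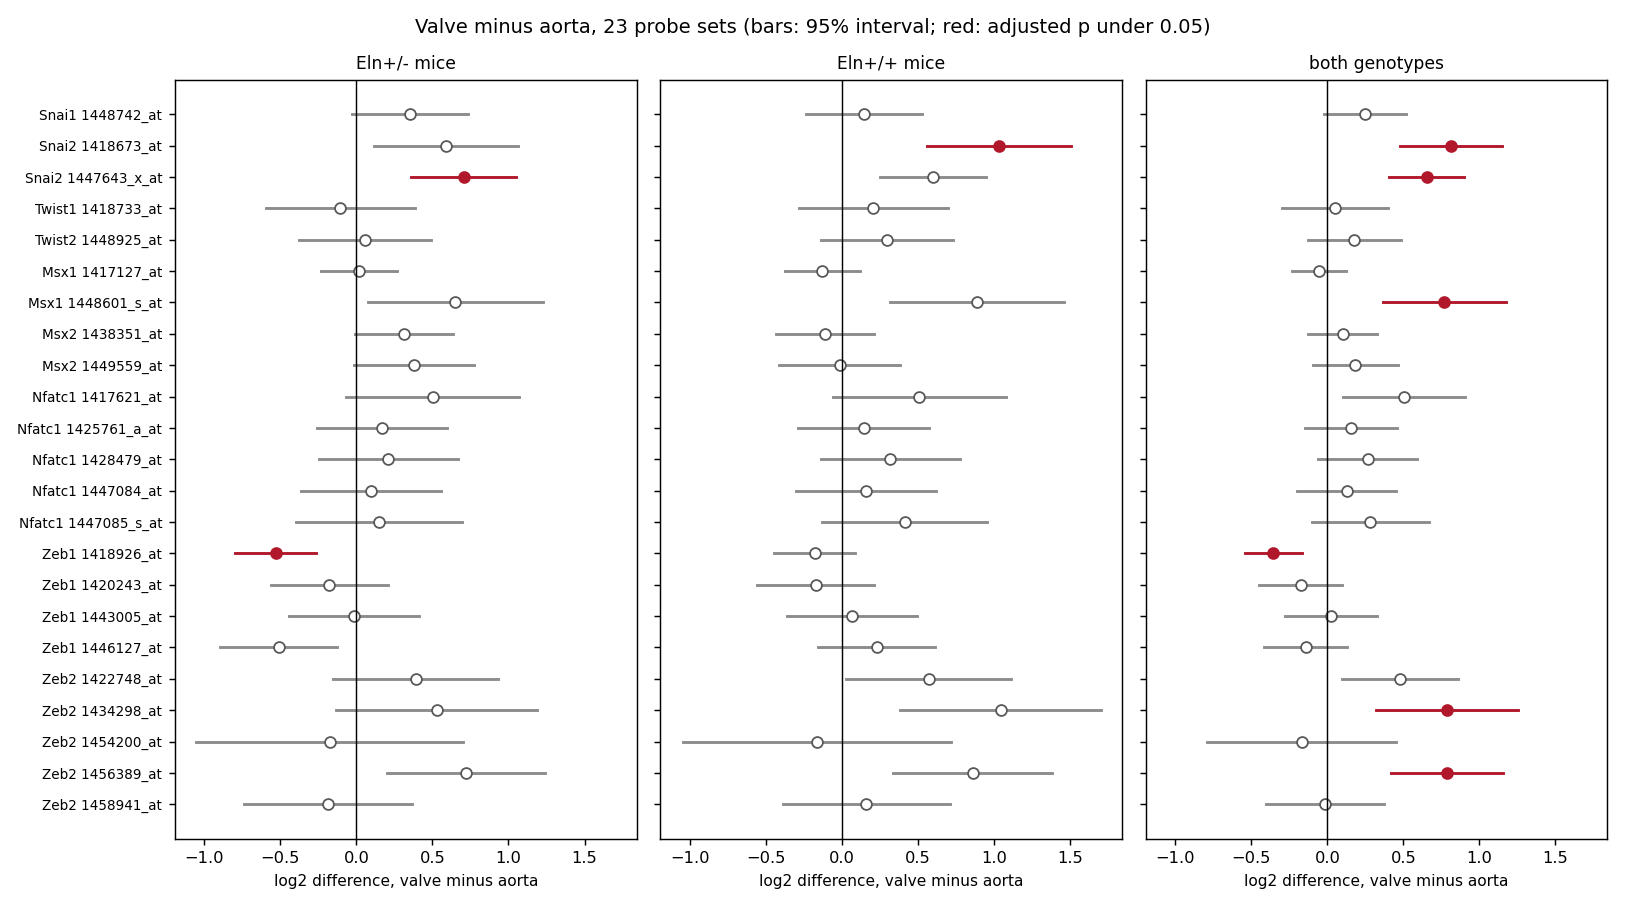
Log2 difference between valve and aorta for each of the 23 probe sets in Eln+/- mice, in Eln+/+ mice and over both genotypes, with 95% intervals from limma; red marks an adjusted p under 0.05. Over both genotypes the 2 Snai2, 2 of the Zeb2 and 1 of the Msx1 probe sets lie to the right of 0 and 1 Zeb1 probe set lies to the left.

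Snai2, the Slug repressor of cushion mesenchyme, gave the clearest separation. Its probe set 1418673_at read 0.044, 0.32, 0.037 and 0.34 in valve Eln+/- and 0.56, 0.18, 0.25 and 0.89 in valve Eln+/+. In the aorta it read -0.71, -0.39, -0.43 and -0.087 in Eln+/- and -0.037, -0.81, -1.10 and -0.31 in Eln+/+ arrays. All 8 valve values lay above all 8 aorta values, which held for 1.2% of all probe sets in this direction and 0.38% in the other. The difference was 0.81 ± 0.16 (SE) or 1.76-fold (95% interval 0.48 to 1.15, adjusted p 0.00428, limma). Within genotype it was 0.59 ± 0.22 (SE) in Eln+/- mice (adjusted p 0.148, limma) and 1.03 ± 0.22 (SE) in Eln+/+ mice (adjusted p 0.0375, limma). The call in Eln+/+ mice alone was lost in 9 of the 16 fits without 1 array, with an adjusted p of up to 0.135. Over all 16 the value ran from 0.86 to 1.21, and the call over both genotypes held in all 16.

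The other Snai2 probe set, 1447643_x_at, pointed the same way. It read 0.28, 0.69, 0.35 and 0.39 in valve Eln+/- and 0.67, 0.16, -0.011 and 0.18 in valve Eln+/+, against -0.29, -0.13, -0.28 and -0.40 in aorta Eln+/- and 0.011, -0.45, -0.49 and -0.46 in aorta Eln+/+. Only valve Eln+/+ replicate 3 and aorta Eln+/+ replicate 1 overlapped, at -0.011 and 0.011. The difference over both genotypes was 0.65 ± 0.12 (SE) or 1.57-fold, and its adjusted p of 0.00226 (limma) was the lowest of the 23 probe sets. It was 0.71 ± 0.16 (SE) in Eln+/- mice, where it passed (adjusted p 0.0178, limma), and 0.60 ± 0.16 (SE) in Eln+/+ mice, where it did not (adjusted p 0.114, limma). The difference between the genotypes was not past the threshold for either probe set, at -0.44 for 1418673_at and 0.11 for 1447643_x_at (adjusted p 0.728 and 0.927 in limma), and the pair had opposite signs there. In Eln+/- mice the call of 1447643_x_at ended without aorta Eln+/- replicate 4, with a difference of 0.62 and an adjusted p of 0.0556 in limma. Whether the probes of 1447643_x_at also match other transcripts was not tested.

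Snai1, the Snail repressor that can act first in EMT, has 1 probe set and did not pass. It read -0.35, 0.43, 0.26 and 0.21 in valve Eln+/-, 0.090, 0.22, 0.26 and -0.20 in valve Eln+/+, -0.21, -0.017, -0.47 and -0.16 in aorta Eln+/- and -0.023, 0.017, 0.18 and -0.38 in aorta Eln+/+. The groups overlapped, and the difference over both genotypes was 0.25 ± 0.13 (SE), with an interval of -0.023 to 0.52 and an adjusted p of 0.294 in limma. This interval overlapped those of the Snai2 probe sets, 0.48 to 1.15 for 1418673_at and 0.41 to 0.90 for 1447643_x_at. The genes were not compared by a test.

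Zeb2, the E-box repressor also known as Sip1, rose in the valve on 2 of its 5 probe sets. Probe set 1456389_at read 0.20, 0.39, 0.40 and 0.11 in valve Eln+/- and 0.43, -0.12, 0.53 and 0.50 in valve Eln+/+. In aorta Eln+/- it read -0.71, 0.22, -0.23 and -1.06, and in aorta Eln+/+ -0.20, -0.72, -0.89 and -0.29. The aorta arrays were lower except for Eln+/- replicate 2, which lay among the valve arrays. The difference over both genotypes was 0.79 ± 0.17 (SE), 1.73-fold (adjusted p 0.00982, limma), and it passed in all 16 fits without 1 array, at 0.69 to 0.90. Within genotype it was 0.72 ± 0.25 (SE) in Eln+/- and 0.86 ± 0.25 (SE) in Eln+/+ mice, and neither passed (adjusted p 0.104 and 0.142, limma).

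Probe set 1434298_at of Zeb2 showed the same order with a wider spread. Its values were -0.020, 0.28, 0.34 and 0.45 in valve Eln+/-, 0.11, 0.011, 0.37 and 0.40 in valve Eln+/+, -0.56, 0.61, -0.29 and -0.81 in aorta Eln+/- and -0.58, -1.12, -1.58 and -0.011 in aorta Eln+/+. Aorta Eln+/- replicate 2 had the highest value of all 16 arrays. The difference was 0.79 ± 0.22 (SE) (adjusted p 0.0374, limma). This call was lost in 11 of the 16 fits without 1 array, with an adjusted p of at most 0.0798 (limma). Over all 16 the difference ran from 0.66 to 0.93. The third, 1422748_at, stood at 0.48 ± 0.18 (SE) and did not pass (adjusted p 0.128, limma). The remaining probe sets, 1454200_at and 1458941_at, stood at -0.17 and -0.014, so the Zeb2 probe sets disagreed, and with the mean over all 5 the tissue difference was 0.37 (adjusted p 0.182, limma).

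Markers of macrophages, which express Zeb2, were read beside these values. Of the 11 macrophage and osteoclast markers, 10 had a positive tissue difference, 1 rose and 1 fell past the threshold, and their median difference was 0.60, beside -0.030 over all genes. Of all genes 5.83% rose and 3.8% fell past it. The mean of the list ran from 0.13 to 0.48 in valve Eln+/- and -0.29 to 0.25 in valve Eln+/+, against -0.86 to 1.06 in aorta Eln+/- and -0.44 to -0.090 in aorta Eln+/+. Its highest value, 1.06, was that of aorta Eln+/- replicate 2, the array that was also highest in 1434298_at. That array was not high in macrophage markers alone. Its thymocyte mean, 1.48, was the highest of all arrays, and its adipocyte and mesothelium means were 2.23 and 1.12. Without that array the difference of 1434298_at was 0.93 (adjusted p 0.00572, limma) and that of 1456389_at 0.90 (adjusted p 0.00171, limma), both larger than with it. The part of macrophages or of these other cells in the tissue difference was not tested.

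**Figure D2:**
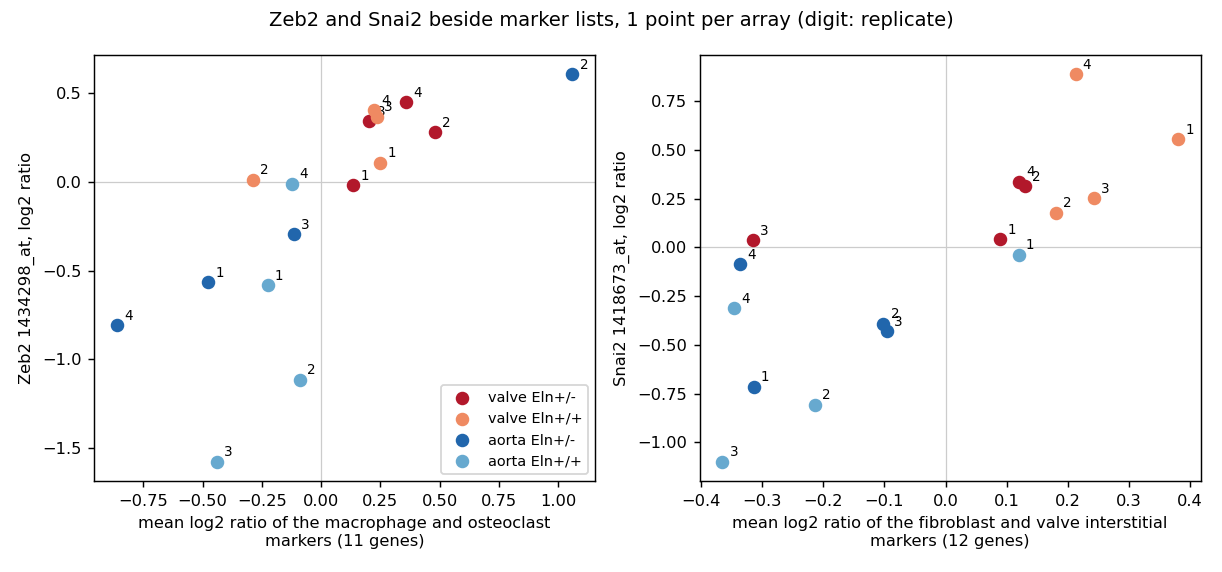
Log2 ratio of Zeb2 (left, probe set 1434298_at) and Snai2 (right, probe set 1418673_at) against the mean log2 ratio of a marker list on the same array, 1 point per array, coloured by group and numbered by replicate. Aorta Eln+/- replicate 2 is at the upper right for Zeb2, with a macrophage mean of 1.06; for Snai2 all valve arrays lie above all aorta arrays.

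Zeb1, the paralog of Zeb2, went the other way on 1 probe set. Its probe set 1418926_at read -0.31, -0.19, -0.67 and -0.42 in valve Eln+/- and -0.21, 0.019, -0.16 and -0.019 in valve Eln+/+, against 0.036, 0.045, 0.27 and 0.18 in aorta Eln+/- and 0.22, 0.072, -0.031 and 0.091 in aorta Eln+/+. The valve Eln+/- arrays were all below all aorta arrays, whereas the valve Eln+/+ arrays overlapped the Eln+/+ aorta. Over both genotypes it fell by 0.36 ± 0.089 (SE), a ratio of 0.781 (adjusted p 0.0204, limma). In Eln+/- mice it fell by 0.53 ± 0.13 (SE) (adjusted p 0.0199, limma), and in Eln+/+ mice the difference was -0.18 ± 0.13 (SE) (adjusted p 0.609, limma). The difference between these tissue effects, -0.35 ± 0.18 (SE), did not pass (adjusted p 0.662, limma). The other 3 Zeb1 probe sets, 1420243_at, 1443005_at and 1446127_at, stood at -0.18, 0.025 and -0.14 over both genotypes, none of them past the threshold. In Eln+/- mice the call was lost without valve Eln+/- replicate 3, without aorta Eln+/- replicate 3 or without aorta Eln+/- replicate 4, with an adjusted p of up to 0.0756 (limma); over the 16 fits without 1 array the difference ran from -0.60 to -0.44.

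Msx1, a BMP-responsive homeodomain factor of cushion endocardium and mesenchyme, gave conflicting probe sets. Probe set 1448601_s_at read 0.33, 0.57, 0.16 and -0.019 in valve Eln+/- and -0.064, 0.019, 0.42 and 0.44 in valve Eln+/+. In the aorta its values were 0.049, -1.17, -0.65 and 0.21 in Eln+/- and -0.53, -0.88, -0.26 and -1.07 in Eln+/+ arrays. In Eln+/+ mice the tissues did not overlap, whereas aorta Eln+/- replicates 1 and 4 lay within the valve range. Of the 23 probe sets, 5 were higher and 0 lower without overlap in Eln+/+ mice. The share over all probe sets is not given for groups of 4 arrays. The difference over both genotypes was 0.77 ± 0.19 (SE), 1.70-fold (adjusted p 0.0201, limma). It was 0.65 ± 0.27 (SE) in Eln+/- and 0.89 ± 0.27 (SE) in Eln+/+ mice, where neither passed (adjusted p 0.194 and 0.175, limma). The second probe set, 1417127_at, annotated to the same transcript record, stood at -0.056 ± 0.083 (SE) with a narrow interval of -0.23 to 0.12, and its SD over the 16 arrays was 0.13, beside 0.55 for 1448601_s_at. With the mean of both the difference was 0.36 (adjusted p 0.105, limma). The suffix s_at marks a probe set whose probes can match more than 1 transcript.

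Msx2, which overlaps with Msx1 in cushion development, did not pass on either probe set. For 1449559_at the values were 0.16, 0.015, 0.52 and -0.13 in valve Eln+/-, 0.11, -0.077, -0.29 and 0.28 in valve Eln+/+, 0.049, -0.54, -0.50 and 0.040 in aorta Eln+/- and -0.040, -0.015, 0.27 and -0.13 in aorta Eln+/+. All 4 groups overlapped, and the difference over both genotypes was 0.18 ± 0.13 (SE) (interval -0.097 to 0.46, adjusted p 0.493, limma). The other, 1438351_at, stood at 0.10 ± 0.11 (SE); its ratios have a median below 1 over the arrays, as do those of Zeb1 1420243_at and of 5257 probe sets in all, for a reason the sources used here do not give. In Eln+/- mice the valve and aorta arrays did not overlap on 1438351_at, at 0.31, with an adjusted p of 0.278 in limma. Of the 23 probe sets, 3 were higher without overlap in Eln+/- mice and 1, Zeb1 1418926_at, was lower. The share over all probe sets is not given for groups of 4 arrays.

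Twist1 and Twist2, the basic helix-loop-helix factors, did not pass. Twist1 read -0.29, 0.39, -0.21 and -0.091 in valve Eln+/-, 0.36, 0.070, 0.040 and -0.23 in valve Eln+/+, -0.21, 0.26, 0.21 and -0.041 in aorta Eln+/- and -0.63, -0.56, 0.34 and 0.26 in aorta Eln+/+. The difference over both genotypes was 0.051 ± 0.16 (SE) with an interval of -0.30 to 0.40 (adjusted p 0.912, limma). For Twist2 the values were -0.091, 0.59, -0.022 and -0.17 in valve Eln+/-, 0.30, -0.024, -0.16 and 0.46 in valve Eln+/+, 0.079, 0.15, 0.29 and -0.43 in aorta Eln+/- and 0.021, -0.30, -0.36 and 0.038 in aorta Eln+/+. All groups overlapped for both genes, and the Twist2 difference was 0.18 ± 0.14 (SE) with an interval of -0.13 to 0.48 (adjusted p 0.560, limma). The estimate for Snai2 on 1418673_at, 0.81, lies outside both intervals, but it has its own interval of 0.48 to 1.15. The genes were not compared by a test.

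Nfatc1, the endocardial factor of valve elongation, had positive tissue differences on all 5 probe sets, and none passed. They ran from 0.13 for 1447084_at to 0.51 for 1417621_at (adjusted p 0.127 for the highest and 0.721 for the lowest, limma), and 1425761_a_at, 1428479_at and 1447085_s_at stood at 0.16, 0.26 and 0.28. On 1417621_at the values were 0.46, -0.11, -0.058 and 0.0065 in valve Eln+/-, 0.54, 0.32, 0.031 and 0.070 in valve Eln+/+, -0.59, -0.72, -0.0065 and -0.41 in aorta Eln+/- and 0.024, 0.51, -0.65 and -0.96 in aorta Eln+/+. Aorta Eln+/+ replicate 2, one of the aorta arrays with heart muscle signal, was higher than 7 of the 8 valve arrays. Without it, the difference of 1417621_at was 0.64 and passed, with an adjusted p of 0.0288 in limma. Endothelial markers also differed: 11 of 12 had positive tissue differences and 5 rose, with a median of 0.65. Over all genes 5.83% rose, with a median of -0.030. The exception among the 12 was Pecam1, at -0.45 (adjusted p 0.215, limma). The mean of the 12 ran from 0.068 to 0.66 in valve Eln+/- and -0.19 to 0.37 in valve Eln+/+, against -0.71 to 0.20 in aorta Eln+/- and -1.13 to 0.17 in aorta Eln+/+. Of 6 lymphatic endothelial markers 4 rose (median 1.18). Their part in the Nfatc1 values was not tested.

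**Figure D3:**
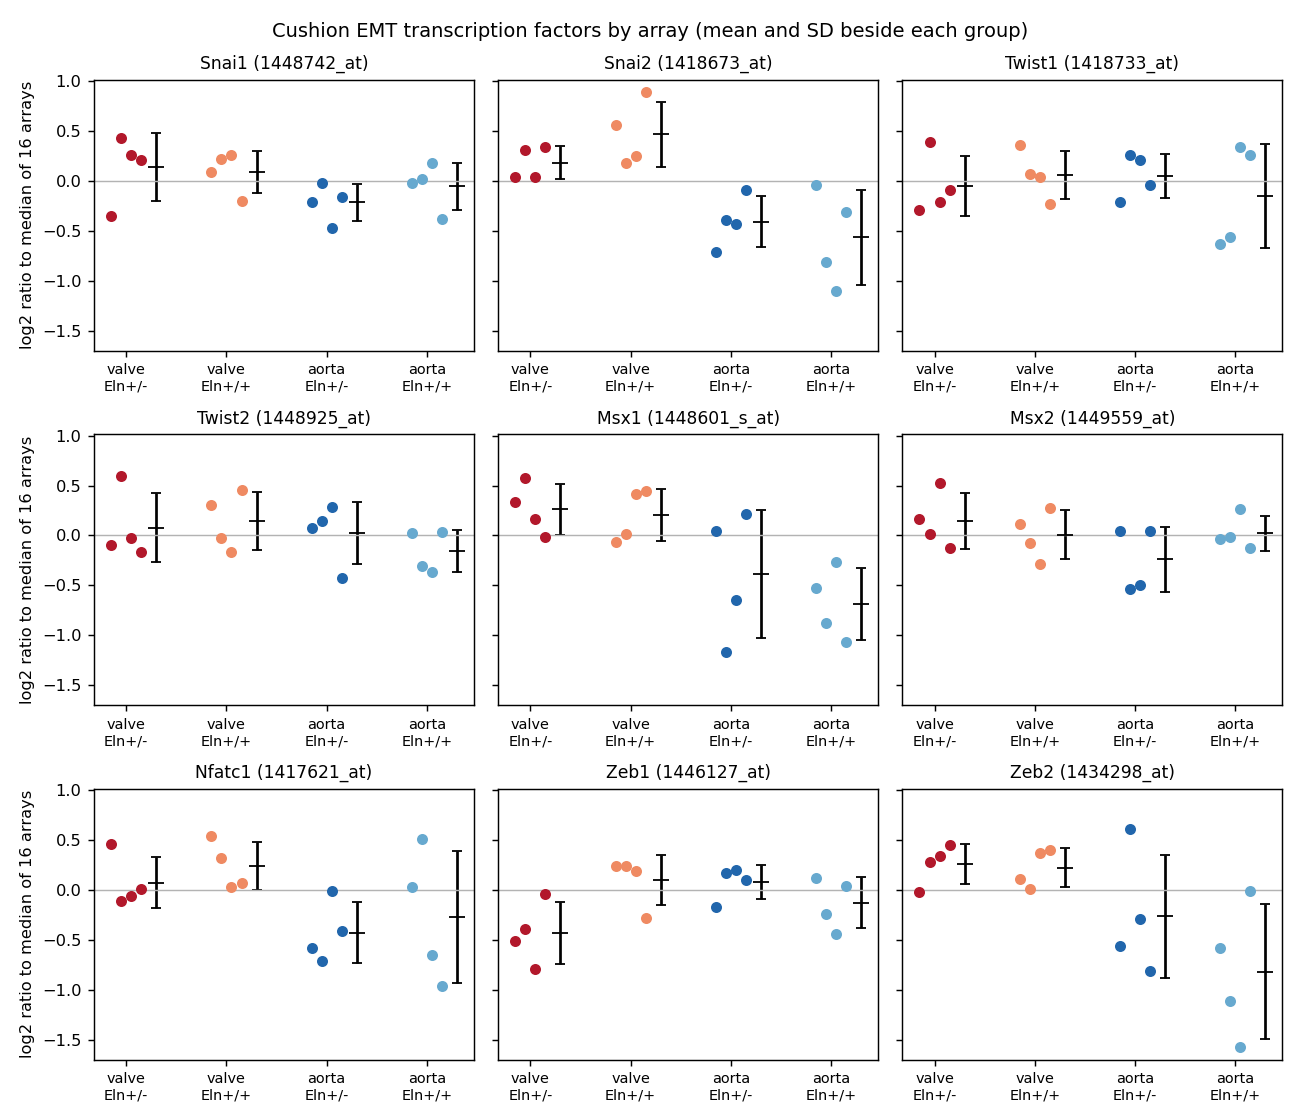
Log2 ratio to the median of the 16 arrays for each of the 9 genes, shown by its probe set of highest SD, with 1 point per array and the mean and SD (n = 4) beside each group. Snai2 separates valve from aorta without overlap, Msx1 and Zeb2 are lower in most aorta arrays, and the groups of Snai1, Twist1, Twist2, Msx2, Nfatc1 and Zeb1 overlap.

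The Eln genotype was compared next, first in the valve. There 0 of the 23 probe sets passed, as did 0% of all probe sets; at an unadjusted p under 0.05 there were 2, both of Zeb1, beside 8.6% of all probe sets, a share near that of the members. The difference furthest from 0 was that of Zeb1 on 1446127_at. It read -0.51, -0.40, -0.79 and -0.045 in valve Eln+/-, against 0.24, 0.24, 0.19 and -0.28 in valve Eln+/+, so that Eln+/+ replicate 4 fell within the Eln+/- range. The difference was -0.53 ± 0.18 (SE) (adjusted p 0.428, limma). On 1418926_at it was -0.31 ± 0.13 (SE) (adjusted p 0.514, limma), and the other Zeb1 probe sets stood at 0.20 and 0.016. The heart muscle means of the valve arrays did not overlap between genotypes, at 1.53 to 2.31 in Eln+/- and 0.52 to 1.49 in Eln+/+. When that mean entered the model of the valve arrays as a covariate, the 1446127_at difference was 0.023 ± 0.23 (SE), with a 95% interval of -0.49 to 0.54. Heart muscle content and genotype cannot be told apart in these 8 arrays.

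No other factor stood out in the valve. Snai2 averaged 0.18 ± 0.17 in valve Eln+/- and 0.47 ± 0.33 in valve Eln+/+ on 1418673_at (SD, n = 4 each), and 0.43 ± 0.18 against 0.25 ± 0.29 on 1447643_x_at, with differences of -0.29 and 0.18 that have opposite signs. Msx2 probe set 1438351_at did not overlap between the genotypes, at -0.44, -0.30, -0.30 and -0.37 against -0.89, -0.60, -0.66 and -0.48, a difference of 0.30 ± 0.15 (SE) (adjusted p 0.602, limma), and 1449559_at gave 0.14. It was the only 1 of the 23 without overlap there. The share over all probe sets is not given for groups of 4 arrays, so no weight is put on this. Over the 23 probe sets the differences ran from -0.53 to 0.30 with a median of -0.0053, beside 0.011 over all probe sets. The 95% intervals were wide beside the tissue effects, at -0.34 to 0.43 for Snai1 and -0.51 to 0.63 for Msx1 on 1448601_s_at.

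In the aorta 0 of 23 passed, where 0% of all probe sets did, and 0 had an unadjusted p under 0.05, beside 5.51% of all. The differences ran from -0.26 for Msx2 on 1449559_at to 0.56 for Zeb2 on 1434298_at. The Zeb2 value rested on aorta Eln+/- replicate 2, at 0.61, and on aorta Eln+/+ replicates 2 and 3, at -1.12 and -1.58, and its adjusted p was 0.887 in limma. Snai2 averaged -0.41 ± 0.26 in aorta Eln+/- and -0.56 ± 0.48 in aorta Eln+/+ on 1418673_at (SD, n = 4 each). Twist1 averaged 0.054 ± 0.22 in aorta Eln+/- and -0.15 ± 0.52 in aorta Eln+/+, where 2 arrays lay near -0.56 and the other two were positive.

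The genotype effects of the tissues were also set against each other. The interaction passed for 0 of 23 and for 0% of all probe sets, with 1 member at an unadjusted p under 0.05, beside 7.72% of all. That was Zeb1 on 1446127_at, at -0.74 ± 0.26 (SE) (adjusted p 0.619, limma), with a genotype difference of -0.53 in the valve and 0.21 in the aorta. With 4 arrays in a group, the intervals of the interaction were wide, such as -1.45 to 0.42 for Zeb2 on 1434298_at and -1.11 to 0.22 for Snai2 on 1418673_at.

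**Figure D4:**
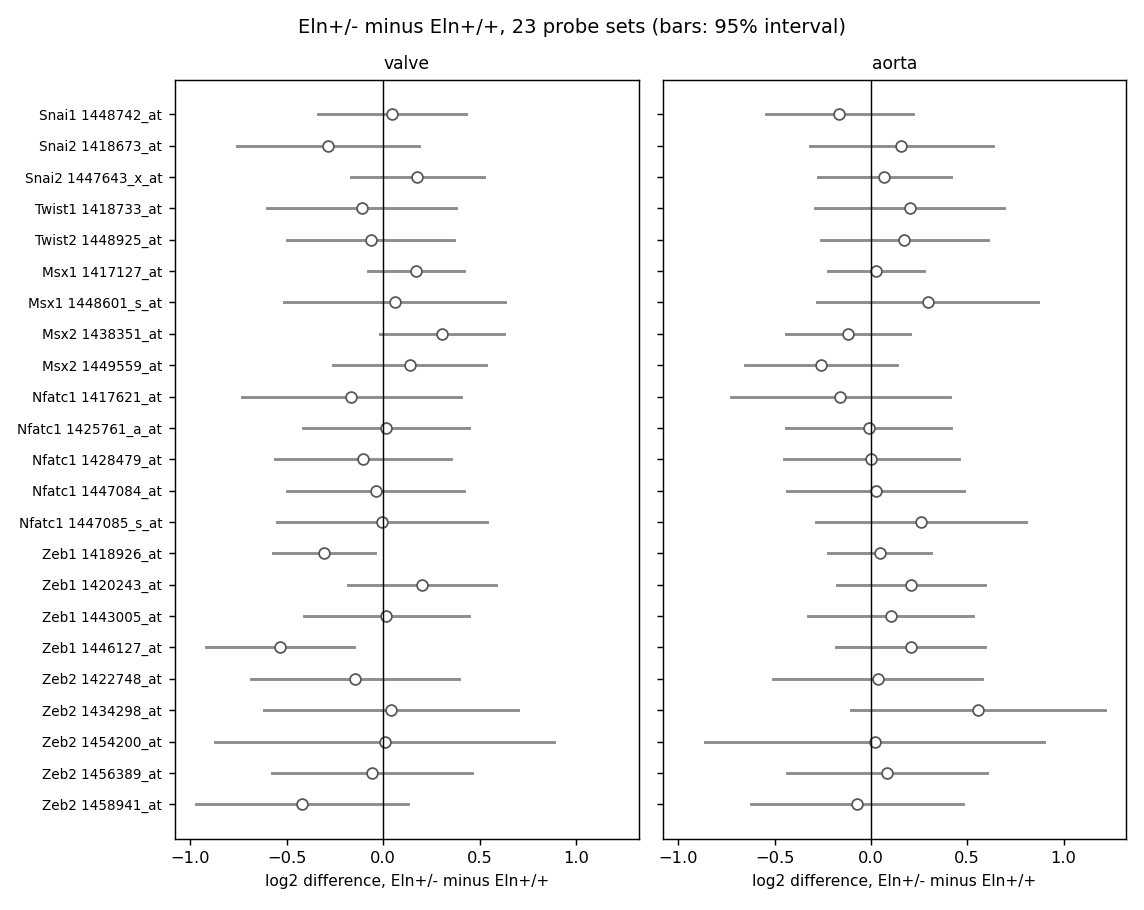
Log2 difference between Eln+/- and Eln+/+ for each of the 23 probe sets in the valve (left) and the aorta (right), with 95% intervals from limma. None passed; in the valve the intervals of 2 Zeb1 probe sets lie below 0.

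Other genes of cushion EMT were read from the same fit, each by its probe set of highest SD, over both genotypes. By that choice 5.83% of all genes were higher in the valve and 3.8% lower, with a median difference of -0.030. Among 22 further cushion transcription factors, 9 rose and 0 fell, with a median of 0.46. Tbx20, a T-box factor of myocardium and cushion, stood at 3.13 ± 0.27 (SE), Tbx5 at 2.29, Gata4 at 2.08 and Sox9, which drives chondrogenic programs in valve mesenchyme, at 1.81, with an adjusted p of at most 0.000107 in limma. Heart muscle also expresses Tbx20, Tbx5 and Gata4, and of the 22 heart muscle markers all 22 rose in the valve, and the part of muscle in these values was not tested.

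Of 30 family members and partners of the 9 factors, 4 rose and 2 fell, with a median of -0.080. Tcf4, an E-protein partner of Twist, was 0.78 ± 0.12 (SE) higher with all 8 valve arrays above all 8 aorta arrays, and Hand2, a bHLH relative of Twist1, stood at 0.92. Rcan1, a calcineurin inhibitor gene and NFAT target, rose by 0.76 and Tcf21 by 1.08. The forkhead genes Foxc1 and Foxc2 fell, at -0.72 and -0.83. Adjusted p ran from 0.000602 to 0.0356 in limma.

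Of 51 upstream signalling genes, 8 rose and 5 fell, with a median of 0.022. The endocardial Wnt ligand Wnt9b was 1.50 ± 0.16 (SE) higher, the TGF-beta co-receptor Eng 1.18, the BMP ligand Bmp2 0.99 and the hyaluronan synthase Has2, which makes cushion jelly, 1.06. On the other side stood the BMP receptors Bmpr1b at -2.56 ± 0.33 (SE) and Bmpr1a at -0.72, the Notch effector Rbpj at -0.45 and the Notch target Hey2 at -0.84. All 8 valve values lay above all 8 aorta values for Wnt9b, Eng and Bmp2 and below them for Bmpr1b and Hey2. Adjusted p were at most 0.0280 in limma. Eng is also among the 12 endothelial markers, and the part of endothelial cells in its value was not tested.

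Genes read as the outcome of EMT went in both directions. Of 22 measured mesenchymal genes 3 rose and 3 fell, and 5 differences were positive and 17 negative (median -0.24): the cadherins Cdh2, at 2.67 ± 0.24 (SE), and Cdh11, at 1.25, and the matrix gene Vcan, at 0.96, were higher, and the crosslinking enzyme gene Lox, at -1.43, Acta2 of smooth muscle, at -1.48, and Mmp9, at -0.72, were lower. Cdh2 is also the cadherin of heart muscle. Of 12 endothelial or epithelial genes 1 rose, the junction gene Tjp1 at 0.36, and 1 fell, the keratin gene Krt18 at -1.04 (median 0.16). Cdh5, the endothelial cadherin that Snail factors repress, was at 0.89 (adjusted p 0.107, limma).

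By genotype none of these genes passed in either tissue. At an unadjusted p under 0.05 (limma) there were 5 of 51 upstream genes, 4 of 30 relatives and partners, 3 of 22 further factors, 8 of 22 mesenchymal and 0 of 12 endothelial or epithelial genes in the valve, beside 9.48% of all genes. Of the mesenchymal genes 3 had a positive and 19 a negative difference in the valve, with a median of -0.35, beside 0.032 over all genes. In the aorta these 5 lists held 4, 0, 0, 1 and 0 such genes, beside 5.68% of all. In the valve, among those of lowest p, were Bmpr1b at -1.56 ± 0.46 (SE), Tbx5 at 1.28, Foxp1 at -0.85, Prrx1 at -0.80, Rcan1 at 0.61 and Hey2 at -0.60; their adjusted p lay between 0.422 and 0.442 (limma). In the aorta the Notch genes Hey1 and Dll4 stood at -0.73 and -0.49, with an adjusted p of 0.885 each in limma. Cell content also differed between the valve groups. All 22 heart muscle markers had a positive genotype difference in the valve (median 0.82). Of 13 smooth muscle markers 11 were negative there, as were 10 of 12 fibroblast and valve interstitial markers. The part of cell content in the valve values of the mesenchymal genes and of Tbx5 was not tested.

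**Figure D5:**
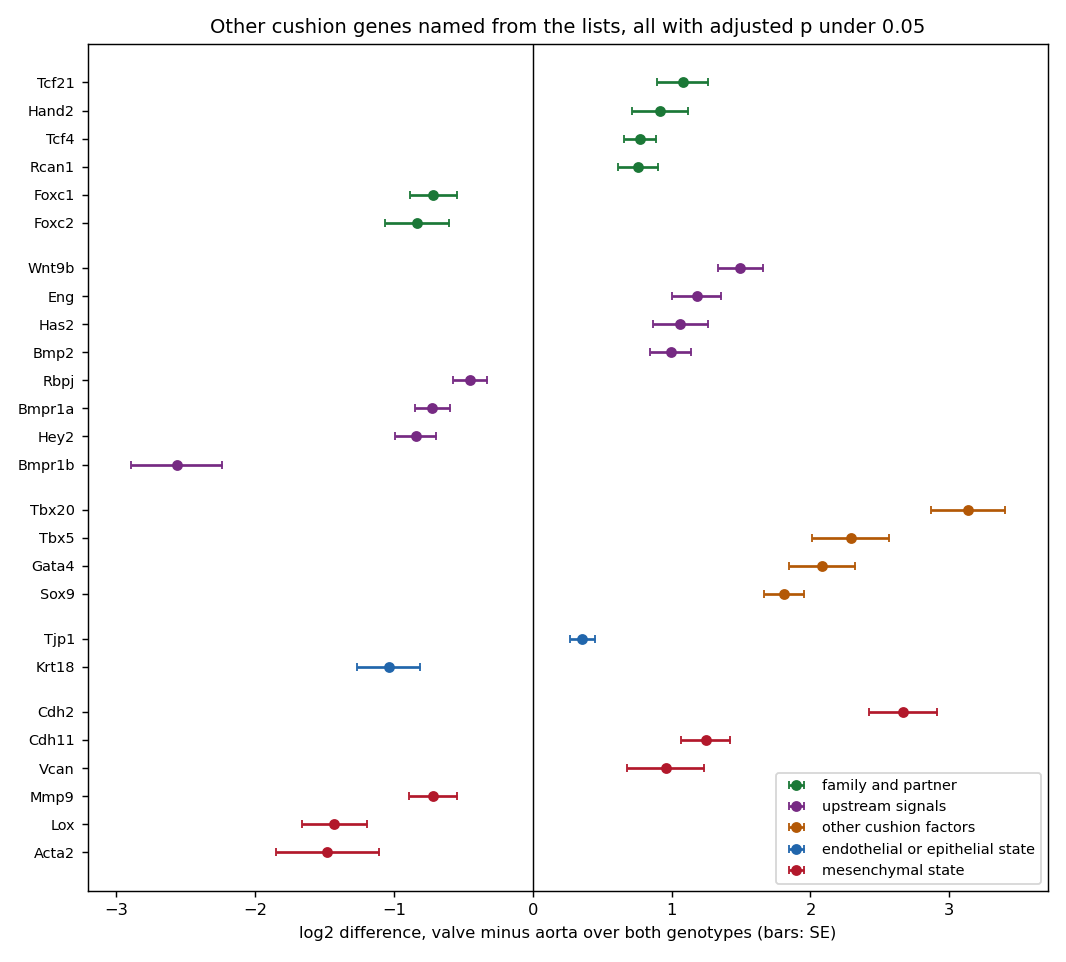
Log2 difference between valve and aorta over both genotypes, with SE from limma, for the genes named from each list of other cushion EMT genes by lowest p. Tbx20, at 3.13, and Cdh2, at 2.67, are the highest shown and Bmpr1b, at -2.56, the lowest.

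The genes whose log2 values lay closest over the 16 arrays were found for Snai2, Zeb2, Msx1 and Zeb1, each by its probe set of highest SD. For Zeb1 that is 1446127_at, not the called 1418926_at. For Snai2 these were A030001D20Rik, Amot and Rpa1, with root mean square differences of 0.27, 0.29 and 0.30, against a median of 0.65 over all genes. For Zeb2 they were Nrp1, a semaphorin and VEGF co-receptor gene, at 0.24, Elk3, an ETS factor gene, at 0.28 and Inpp5d, a phosphatase gene of blood cells, at 0.29, against a median of 0.73. For Msx1 they were Il1r1, Dok7 and Efhd2 (0.30 to 0.31), and for Zeb1 Atp1b3, Nedd4 and Eml1 (0.15 to 0.19). No other factor of the 9 was among the 3 closest to any of these.

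Markers of mesenchymal valve cells were mixed. Of 12 fibroblast and valve interstitial markers 6 rose over both genotypes and the other 6 had negative differences that did not pass, with a median of 0.29. In Eln+/- mice 4 rose and 1 fell. Their mean ran from -0.32 to 0.13 in valve Eln+/- and 0.18 to 0.38 in valve Eln+/+, against -0.34 to -0.096 in aorta Eln+/- and -0.37 to 0.12 in aorta Eln+/+. Valve Eln+/- replicate 3 had a fibroblast mean of -0.32, within the aorta range, and Snai2 at 0.037, above every aorta array. Of 10 cartilage-type markers 8 rose (median 2.21), and of 8 melanocyte and Schwann cell markers 6 rose (median 1.12). Over all genes 5.83% rose, with a median of -0.030. Both of these lineages can express Snai2. The part of these cells in the Snai2 and Msx1 differences was not tested.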

How the data were processed

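RNA of 16 specimens was amplified, labelled with biotin and hybridised to the Affymetrix GeneChip of the mouse genome, per the labels. The submitters' processing notes name RMA. The deposited values are linear ratios to the median of each probe set over the arrays, as read from the values: the median was 1 to within 1e-06 in 39780 of 45037 probe sets and lower in the others. How that division was made is not given in the sources used here. The 64 control probe sets were left out, log2 was taken, and limma 3.58.1 in R 4.3.3 was fitted to 4 group means with 12 residual degrees of freedom (lmFit, eBayes, two-sided, Benjamini-Hochberg adjustment over all probe sets, threshold 0.05), after tests on simulated data. The comparisons were valve minus aorta in each genotype and over both, Eln+/- minus Eln+/+ in each tissue, and their interaction. Replicates are specimens, and their number limits the precision. Alternatives changed the arrays, scaling, log offset (0.1), weights, blocks, covariates (Xist minus 3 Y-linked genes; heart muscle mean), filters and probe set choice. All probe sets of the 9 genes are named; the one with the highest SD stands for a gene where 1 is needed, which favours probe sets that differ between tissues. From the lists, genes were named by lowest p, up to 4 per direction of a tissue comparison and 2 of a genotype comparison; the text gives part of them. Of 25 mesenchymal genes 22 were measured. The members and lists were chosen with earlier results of these data known. Genes without a probe set of 1 symbol were not analysed here.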

Additional observations from a re-analysis of the deposited data

Results flagged for a closer look

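In each group of 4, an array was picked out when its gap to the nearest other array was larger, relative to the range of the group, than Dixon's 95% critical value. This held for 4 of 92 groups of member values, and chance alone gives about 1 in 20. Snai2 on 1447643_x_at stood at 0.011 in aorta Eln+/+ replicate 1, and the other 3 arrays of that group lay between -0.49 and -0.45. Msx1 on 1417127_at stood at 0.14 in valve Eln+/- replicate 2, and the other 3 arrays of that group lay between -0.0085 and 0.0038. Zeb1 on 1446127_at stood at -0.28 in valve Eln+/+ replicate 4, and the other 3 arrays of that group lay between 0.19 and 0.24. Zeb2 on 1456389_at stood at -0.12 in valve Eln+/+ replicate 2, and the other 3 arrays of that group lay between 0.43 and 0.53. These arrays stayed in every comparison. No member had a genotype effect that differed between the tissues past the threshold.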

How the results depend on the processing

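Over both genotypes the count of 6 called probe sets ran from 5 to 7 over the fits without 1 array. In Eln+/+ mice it ran from 0 to 1, and in Eln+/- mice from 0 to 3. Both genotype comparisons and the interaction had 0 calls in every alternative fit. Within genotype the counts moved further: 0 in Eln+/+ and 1 in Eln+/- mice with only the groups compared in the fit, 0 in Eln+/- mice when probe sets with an SD up to the median were left out, and 2 in Eln+/+ and 0 in Eln+/- mice without the aorta arrays with thymocyte signal, a setting chosen after the data were seen. The replicate block, the number within genotype, left 3 calls over both genotypes, both Snai2 probe sets and Zeb2 1456389_at, and 1 in Eln+/- mice. Same-numbered valve and aorta arrays deviated from their group means with correlations of -0.040 to 0.052. Of these 8 pairs, 2 correlated best with their own number. In Eln+/+ mice the sex signal, Xist minus the Y-linked genes, was opposite at replicates 2 and 4. It was 0.84 in valve and -10.7 in aorta replicate 2, and -11.0 in valve and 0.66 in aorta replicate 4. By this signal these same-numbered specimens were not from 1 mouse, and the replicate block did not stand for a mouse there. For the other pairs the correlations cannot decide whether valve and aorta specimens came from the same mice, because noise of single arrays also lowers them. The same mouse could also carry different numbers in the 2 tissues. The main fit took all specimens as independent. Of 1314 recomputed differences 44 changed sign; none of these was called in either fit, and the causes were not tested. With the cardiac muscle covariate the genotype difference in the valve was 0.23 for Twist1, -0.040 for Msx1, -0.38 for Msx2, 0.023 for Zeb1 and -0.072 for Zeb2. With the sex-linked covariate it was 0.13 for Nfatc1 and -0.24 for Zeb2, and 0.13 for Nfatc1 in the aorta. With the mean of a gene's probe sets, Zeb2 was -0.12 in the valve and Nfatc1 0.023 in the aorta by genotype, and Zeb1 -0.014 by tissue in Eln+/+ mice. The Msx2 tissue difference in Eln+/+ mice was 0.017 with centred arrays and 0.00062 with quantile normalization, and the Nfatc1 interaction 0.0012 with array weights. Without the arrays with thymocyte signal Snai2 was -0.0081 by genotype in the aorta and Twist2 -0.10 by tissue in Eln+/- mice. Leaving out 1 array, differences that changed sign ran from -0.11 to 0.083 (Msx2, tissue, Eln+/+), -0.12 to 0.14 (Twist2, tissue, Eln+/-), -0.029 to 0.13 (Twist1, tissue), -0.020 to 0.33 (Snai2, genotype, aorta), -0.39 to 0.10 (Nfatc1, genotype, aorta), -0.053 to 0.21 (Snai1), -0.24 to 0.039 (Twist2), -0.045 to 0.15 (Msx1) and -0.031 to 0.13 (Zeb2, all genotype, valve), and -0.27 to 0.22 (Nfatc1, interaction). The ratios hold no signal over background, so dim probe sets could not be set aside.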
